A study of Mus musculus with 4 samples.

Results

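To describe how the loss of TREM-2 bears on the genes by which macrophage activation is usually graded, 10 transcripts were examined in alveolar macrophages (AM): *Nos2*, *Acod1*, *Il12b*, *Socs3*, *Arg1*, *Arg2*, *Retnla*, *Mrc1*, *Mgl2* and *Il10*. A gene was taken where the array's annotation gives its symbol as the 1 symbol of a probe set, and the probe set with the highest mean was kept where there were several. All 10 were found, among 19946 genes tested. AM were recovered by bronchoalveolar lavage from untreated *Trem-2*-/- mice, a germline knockout backcrossed 10 times to C57/Blk6, and from wild type (WT) C57/Blk6 mice, all 8 to 10 weeks old. Each genotype was measured on 2 Affymetrix mouse gene arrays with RNA of pooled mice, 4 arrays in all. The size of a pool is not given in the sources used here, and neither is whether the pools held different animals. The p-values thus take in only the spread of these arrays, which can be technical. WT mice were purchased and then bred in the same facility as the knockout line. *Trem-2* was missing from every cell of these mice, not from AM alone.

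Macrophages answer microbial products and interferon-gamma with classical activation, in which inducible nitric oxide synthase turns arginine into nitric oxide and itaconate is made from cis-aconitate in mitochondria. They answer IL-4 and IL-13 with alternative activation, in which arginase-1 turns arginine into ornithine and urea and lectins such as the mannose receptor appear on the surface. The same arginine is thus drawn on by both programmes, and IL-10 and SOCS3 act as brakes on inflammatory signalling. AM stand apart from this scheme, since they carry the mannose receptor at rest and live under GM-CSF and surfactant.

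Of the 10 activation genes, 2 rose in *Trem-2*-/- AM and none fell. They were *Acod1*, which makes itaconate in classical activation, and *Retnla*, a secreted marker of alternative activation. Neither passed with any 1 of the 4 arrays left out, and *Retnla* lay below the lower quartile of all probe sets on every array. Over all genes tested, 0.567% were called in either direction and 0.431% as higher (limma, Benjamini-Hochberg adjusted p below the threshold of 0.05). The other 8 activation genes did not pass, with adjusted p from limma of 0.069 to 0.96. *Arg1*, the gene of arginase-1, lay nearest to the threshold and was called by significance analysis of microarrays (SAM), the test that the study's methods name. The median log2 difference, *Trem-2*-/- minus WT, was 0.16 over the 10 genes and -0.021 over all genes. The values are log2 signals of the arrays after robust multi-array averaging (RMA), and a level can be compared between arrays but not between probe sets. On the same arrays 8 of 19 interstitial or monocyte-derived macrophage markers rose, 1 fell and 10 were not called, and their part in these differences was not tested.

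The region around the start site is shown for the 2 genes that rose and for *Socs3*, as a target of STAT factors, from the RefSeq promoter windows of mouse assembly GRCm38.p6, which hold 250 bases before and 50 bases after the start. Windows were matched for 6 of the 10 genes. *Socs3* was added after its window had been seen. Each window runs 5′ to 3′ along the gene, and capitals mark matches to a searched motif.
*Acod1* (chr14:103046762-103047061, plus strand): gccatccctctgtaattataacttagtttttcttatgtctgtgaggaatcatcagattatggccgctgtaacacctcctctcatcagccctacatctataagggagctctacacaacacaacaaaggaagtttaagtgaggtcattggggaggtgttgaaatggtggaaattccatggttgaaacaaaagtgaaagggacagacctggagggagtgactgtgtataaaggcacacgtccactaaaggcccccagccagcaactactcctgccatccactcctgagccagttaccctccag
*Retnla* (chr16:48842359-48842658, plus strand): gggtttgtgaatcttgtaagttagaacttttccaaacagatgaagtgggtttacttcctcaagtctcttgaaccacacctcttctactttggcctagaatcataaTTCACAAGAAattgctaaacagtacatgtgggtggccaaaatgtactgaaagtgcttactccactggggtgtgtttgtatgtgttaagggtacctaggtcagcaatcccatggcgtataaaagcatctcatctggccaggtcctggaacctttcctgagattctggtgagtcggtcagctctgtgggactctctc
*Socs3* (chr11:117969317-117969616, minus strand): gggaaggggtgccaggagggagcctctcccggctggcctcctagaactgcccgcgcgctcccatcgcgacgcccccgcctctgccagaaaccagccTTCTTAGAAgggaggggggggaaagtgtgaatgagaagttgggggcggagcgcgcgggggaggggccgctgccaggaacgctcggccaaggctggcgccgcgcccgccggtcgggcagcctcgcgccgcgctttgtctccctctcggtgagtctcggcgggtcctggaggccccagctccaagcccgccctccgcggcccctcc

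The motifs searched on both strands were TTCNNNGAA for STAT factors, TTC and GAA with 4 bases of any kind between them for STAT6, the factor downstream of IL-4, GAAA repeated after 2 bases of any kind for interferon-regulatory factors, TGANTCA for AP-1, and the NF-kB consensus. The *Retnla* window held 1 match to the STAT6 motif, TTCACAAGAA, at -145 to -136 from the start. The *Socs3* window held 1 match to the STAT motif, TTCTTAGAA, at -154 to -146. Both motifs read the same on either strand, and neither match overlapped another. The windows of *Acod1*, *Il12b*, *Mgl2* and *Mrc1* held none of the 5 motifs. Of all 32851 windows in the table, 8.3% held the STAT motif, 6.95% the STAT6 motif, 3.44% the interferon-regulatory one, 7.81% the AP-1 one and 5.8% the NF-kB consensus. A match describes the letters and does not show that a factor binds there.

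**Figure D1:**
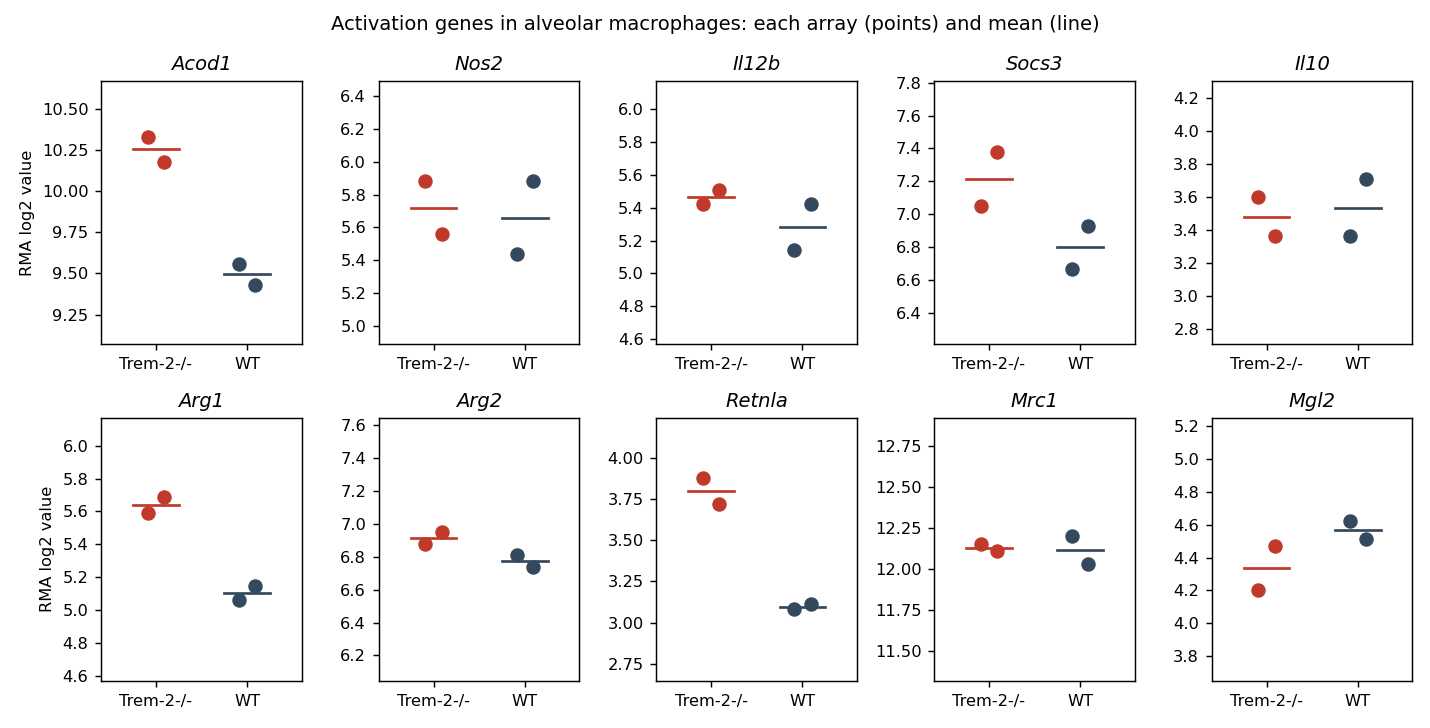
RMA log2 value of each of the 10 activation genes on each array, in *Trem-2*-/- AM (red, left) and WT AM (dark blue, right). Points are the 2 arrays of a genotype and lines their means. Each panel spans the same number of log2 units but has its own range, and the genotypes stand clear of each other for *Acod1*, *Arg1* and *Retnla*, whereas the points overlap for *Nos2*, *Il12b*, *Mrc1* and *Il10*.

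Among the genes of classical activation, *Acod1* differed between genotypes, whereas *Nos2* and *Il12b* did not pass the test. *Acod1*, formerly *Irg1*, encodes the enzyme that decarboxylates cis-aconitate to itaconate. It had log2 values of 10.33 and 10.18 on the *Trem-2*-/- arrays, against 9.56 and 9.43 on the WT arrays. The lowest *Trem-2*-/- array thus lay 0.62 above the highest WT array, while arrays of 1 genotype lay 0.16 apart in *Trem-2*-/- AM and 0.13 in WT AM. The log2 difference was 0.76 (standard error 0.09, 95% interval 0.54 to 0.98, adjusted p = 0.034 from limma), which is a 1.69-fold higher signal. On every array the probe set lay above the upper quartile of all probe sets. The call was lost with any 1 of the 4 arrays left out, with adjusted p from limma of 0.11 to 0.20 and log2 differences of 0.68 to 0.84.

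*Nos2*, the inducible nitric oxide synthase, had log2 values of 5.88 and 5.56 on the *Trem-2*-/- arrays and 5.44 and 5.88 on the WT arrays. The arrays of both genotypes covered nearly the same range, and the sign of the difference turned with single arrays left out. Its log2 difference was 0.06, and the 95% interval of -0.35 to 0.47 was the widest of the 10 genes (adjusted p = 0.92 from limma). *Il12b*, the p40 chain shared by IL-12 and IL-23, had log2 values of 5.42 and 5.51 on the *Trem-2*-/- arrays and 5.14 and 5.42 on the WT arrays. Its log2 difference was 0.18 (95% interval -0.08 to 0.44, adjusted p = 0.59 from limma). A higher signal of the size seen for *Acod1* lay outside both intervals, although both probe sets were dim, with *Il12b* below the median of all probe sets on every array and *Nos2* on 2 of the 4.

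Of the genes that restrain inflammatory signalling, neither *Socs3* nor *Il10* passed the test. *Socs3*, an inhibitor of signalling through the IL-6 receptor chain gp130 and a target of STAT3, had log2 values of 7.05 and 7.38 on the *Trem-2*-/- arrays, against 6.67 and 6.93 on the WT arrays. The genotypes did not overlap, but the gap of 0.12 was smaller than the 0.33 between the *Trem-2*-/- arrays and the 0.26 between the WT arrays. The log2 difference was 0.41 (standard error 0.14, 95% interval 0.08 to 0.75, adjusted p = 0.35 from limma). A second probe set of *Socs3*, the only activation gene with more than 1, had 5.89 and 5.84 on the *Trem-2*-/- arrays, both below the lower WT array at 5.90, and a log2 difference of -0.09. The 2 probe sets of *Socs3* thus disagreed in direction, and their mean gave a log2 difference of 0.16.

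*Il10*, the anti-inflammatory cytokine, had log2 values of 3.60 and 3.36 on the *Trem-2*-/- arrays and 3.36 and 3.71 on the WT arrays. The WT arrays spanned the *Trem-2*-/- arrays, and the log2 difference was -0.06 (95% interval -0.40 to 0.28, adjusted p = 0.91 from limma). Its probe set lay below the lower quartile of all probe sets on every array, so a difference between genotypes may not be detectable there.

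The pair of arginases showed a higher signal for *Arg1*, at the edge of the test, and a small difference for *Arg2*. *Arg1*, the cytosolic arginase induced by IL-4, had log2 values of 5.59 and 5.69 on the *Trem-2*-/- arrays, against 5.06 and 5.15 on the WT arrays. The gap between the genotypes was 0.43, while arrays of a genotype lay 0.10 apart in either. The log2 difference was 0.53 (standard error 0.08, 95% interval 0.34 to 0.73), or a 1.45-fold higher signal, with an adjusted p of 0.069 from limma. The smallest change called in either direction over all genes was 0.54. SAM called *Arg1* as higher, together with *Acod1* and *Retnla*, beside 0.857% of all genes called as higher. With an intensity trend and robust variance in limma, *Arg1* passed too (adjusted p = 0.016), where 1.9% of all genes were called as higher. On all 4 arrays *Arg1* lay below the median of all probe sets.

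*Arg2*, the mitochondrial arginase, had log2 values of 6.88 and 6.95 on the *Trem-2*-/- arrays and 6.81 and 6.74 on the WT arrays. The genotypes did not overlap, with a gap of 0.08 between them. A log2 difference of 0.14 was found (95% interval -0.04 to 0.32, adjusted p = 0.54 from limma).

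Of the markers of alternative activation, *Retnla* rose while *Mrc1* and *Mgl2* did not pass the test. *Retnla* encodes the secreted protein RELM-alpha, also called FIZZ1, which IL-4 and IL-13 induce in mouse macrophages. It had log2 values of 3.88 and 3.72 on the *Trem-2*-/- arrays, against 3.08 and 3.11 on the WT arrays. The gap between the genotypes was 0.61, and the *Trem-2*-/- arrays lay 0.16 and the WT arrays 0.03 apart. The log2 difference was 0.70 (standard error 0.08, 95% interval 0.50 to 0.91, adjusted p = 0.031 from limma), or a 1.63-fold higher signal. On every array, however, the probe set lay below the lower quartile of all probe sets (4.39 to 4.40), so that both levels were near the floor of the arrays and no detection call was at hand. The call was lost with any 1 of the 4 arrays left out (adjusted p = 0.12 to 0.19 from limma), with log2 differences of 0.63 to 0.78.

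*Mrc1*, the mannose receptor CD206, had log2 values of 12.15 and 12.11 on the *Trem-2*-/- arrays and 12.20 and 12.03 on the WT arrays. The WT arrays spanned the *Trem-2*-/- arrays, and *Mrc1* lay above the upper quartile on every array. Its log2 difference was 0.02 (95% interval -0.19 to 0.22, adjusted p = 0.96 from limma). *Mgl2*, a galactose-binding lectin (CD301b), had log2 values of 4.20 and 4.47 on the *Trem-2*-/- arrays and 4.62 and 4.51 on the WT arrays. It was the only activation gene whose *Trem-2*-/- arrays both lay below the WT arrays, by a gap of 0.04. Its log2 difference was -0.23 (95% interval -0.50 to 0.03, adjusted p = 0.49 from limma). *Mgl2* lay below the median of all probe sets on all 4 arrays, and below the lower quartile on 1.

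**Figure D2:**
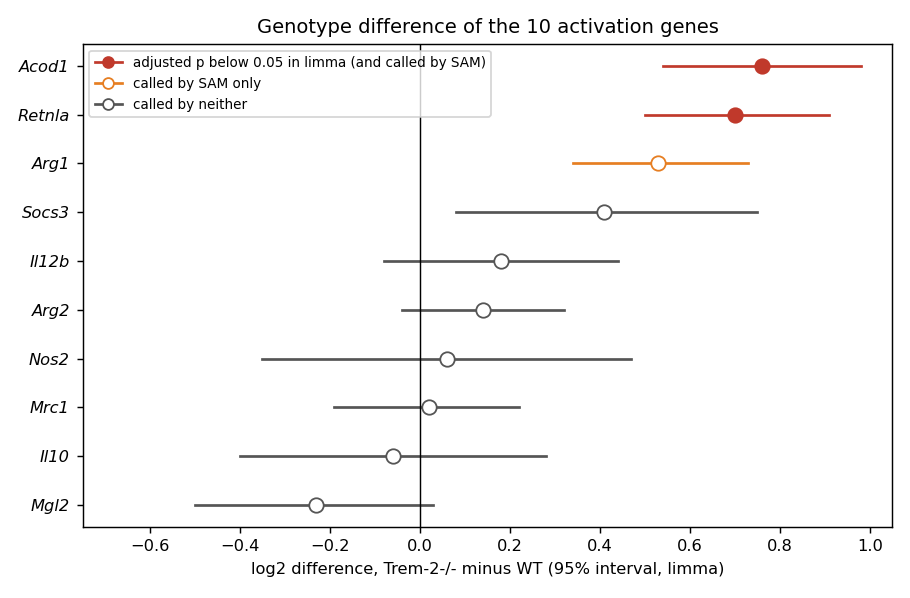
Log2 difference, *Trem-2*-/- minus WT AM, of the 10 activation genes with 95% intervals from limma, from 2 arrays per genotype. Filled red points passed limma and were also called by SAM (*Acod1* at 0.76 and *Retnla* at 0.70), the open orange point was called by SAM only (*Arg1* at 0.53), and open grey points were called by neither. No adjustment for the number of genes was made to the intervals.

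Counted by overlap, 5 of the 10 genes had both *Trem-2*-/- arrays above both WT arrays, namely *Acod1*, *Arg1*, *Retnla*, *Socs3* and *Arg2*, and 1 had both below, *Mgl2*. Over all genes tested, 17.4% lay wholly above and 25.4% wholly below in this way. Hence *Acod1* and *Nos2*, both hallmarks of classical activation, stood at 0.76 and 0.06 on the log2 scale of differences, and *Retnla*, *Arg1* and *Mrc1*, all hallmarks of alternative activation, at 0.70, 0.53 and 0.02. Differences between these genes were not tested. In RNA of lavage cells, more transcript per cell and more cells that carry the transcript cannot be told apart.

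The array profiles nearest to *Acod1* among all genes tested, by Euclidean distance between log2 profiles centred on their own mean over the 4 arrays, were *Cx3cr1* (0.11), *Icosl* (0.12) and *Retnla* (0.13). For *Retnla* they were *Anxa8* (0.056), *Icosl* (0.06) and *Fabp1* (0.061). With 4 arrays this likeness amounts to a difference of like size and a like spread. *Icosl*, a costimulatory ligand, had log2 values of 8.74 and 8.67 on the *Trem-2*-/- arrays, against 8.00 and 8.00 on the WT arrays.

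Other genes of classical activation were next compared. Of 18 measured, 4 rose in *Trem-2*-/- AM, none fell and 14 did not pass, with a median log2 difference of 0.38 against -0.021 over all genes. *Ptgs2*, the inducible cyclooxygenase, had log2 values of 7.75 and 7.78 on the *Trem-2*-/- arrays, against 5.77 and 5.53 on the WT arrays (log2 difference 2.12, adjusted p = 0.00088 from limma). *Cxcl10*, a chemokine induced by interferons, had log2 values of 7.32 and 7.47 on the *Trem-2*-/- arrays, against 6.29 and 6.18 on the WT arrays (log2 difference 1.16, adjusted p = 0.007, passing in 3 of the 4 fits with an array left out). *Gbp5*, an interferon-gamma-induced GTPase, rose by 0.89 (adjusted p = 0.02, passing in 1 of the 4 fits with an array left out), and *Cd86*, a costimulatory ligand, by 0.65 (adjusted p = 0.041, lost with any 1 array left out). Of the others, *Ccl5* had a log2 difference of 0.94 and *Il1b* of 0.67, and neither passed limma (adjusted p = 0.069 and 0.08), although SAM and limma with an intensity trend (adjusted p = 0.00014 for both) called them. *Tnf*, at 11.80 and 11.89 on the *Trem-2*-/- arrays and 11.88 and 11.88 on the WT arrays, had a difference of -0.03 (95% interval -0.21 to 0.15, adjusted p = 0.90 from limma). SAM called 8 of the 18 as higher and none as lower. Limma with an intensity trend called 11 as higher and none as lower. The shares called as higher over all genes were 0.431% by limma, 0.857% by SAM and 1.9% with the intensity trend.

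Of 24 other genes of alternative activation, 2 rose, none fell and 22 did not pass, with a median log2 difference of 0.03. *Alox15*, the 12/15-lipoxygenase, had log2 values of 7.33 and 7.30 on the *Trem-2*-/- arrays, against 5.75 and 5.83 on the WT arrays (log2 difference 1.52, adjusted p = 0.001 from limma). *Ccl24*, the chemokine eotaxin-2, had 5.73 and 5.90 on the *Trem-2*-/- arrays, against 4.96 and 5.12 on the WT arrays, a log2 difference of 0.78 (adjusted p = 0.038 from limma, lost with any 1 array left out). *Chil3*, encoding the chitinase-like protein Ym1 that AM express at rest, had a log2 difference of 0.16 (adjusted p = 0.49 from limma). *Clec10a*, the gene of the related lectin MGL1, had one of -0.03 (adjusted p = 0.97 from limma). *Clec10a* lay below the median of all probe sets on all 4 arrays, and below the lower quartile on 2. The lowest difference was that of *Egr2*, a transcription factor induced by IL-4, with log2 values of 9.83 and 9.78 on the *Trem-2*-/- arrays and 10.32 and 10.30 on the WT arrays (-0.51, adjusted p = 0.058 from limma). *Ccl22* had -0.41 and *Myc* -0.48, and neither passed (adjusted p = 0.30 and 0.094 from limma). When limma was given an intensity trend and robust variance, 6 of these 24 were called as higher and 3 as lower, with *Egr2* and *Myc* among the lower ones, where 1.9% of all genes were called as higher and 1.45% as lower.

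**Figure D3:**
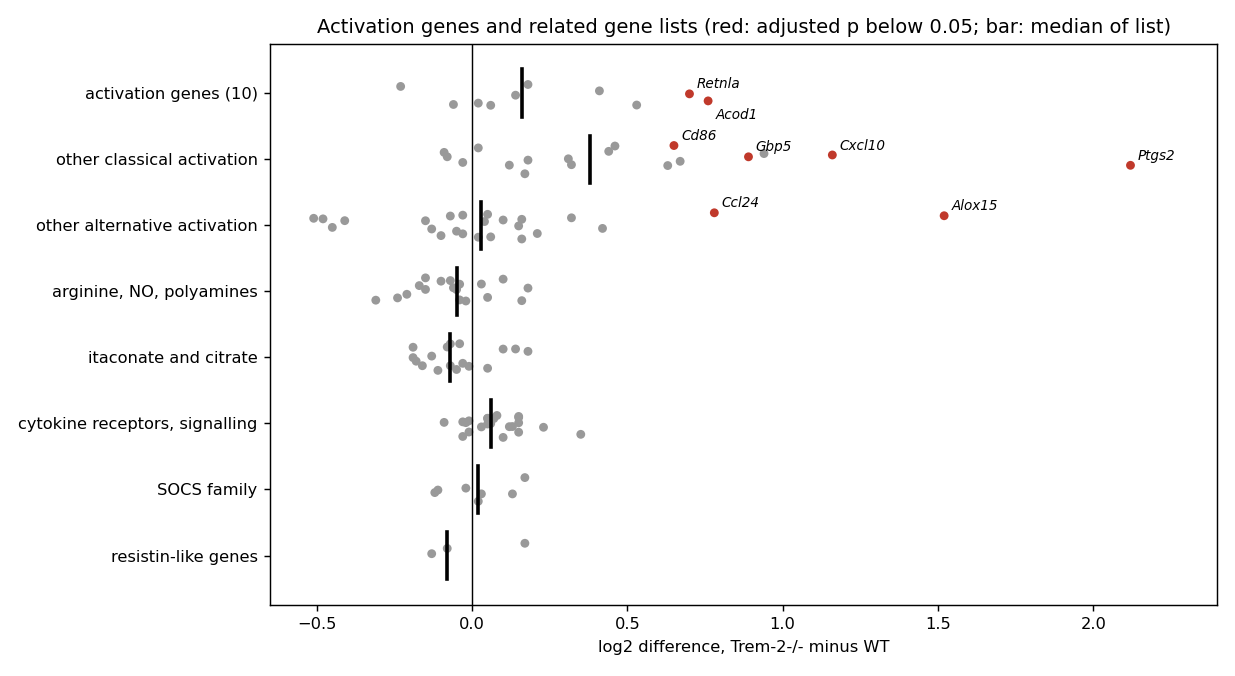
Log2 difference, *Trem-2*-/- minus WT AM, of each measured gene in the 10 activation genes and 7 related lists. Named red points are the genes called by limma (adjusted p below 0.05), all other genes are grey, and a black bar gives each list's median, 0.16 for the 10 activation genes, 0.38 for other classical and 0.03 for other alternative activation genes.

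The metabolism that feeds these enzymes showed no called gene. Of 19 genes of arginine, nitric oxide and polyamine metabolism, none passed limma or SAM, and at an unadjusted p below 0.05 from limma 3 were lower and 0 higher, against 6.9% and 4.64% of all genes. Their log2 differences ran from -0.31 for *Azin1*, which encodes antizyme inhibitor, to 0.18 for *Sat1*, which encodes a polyamine acetyltransferase. *Slc7a2*, an arginine transporter of macrophages, had a difference of 0.05 (95% interval -0.13 to 0.22). *Odc1*, the ornithine decarboxylase that draws on the product of arginase, had -0.24 (adjusted p = 0.33), and *Gch1*, which makes the cofactor of nitric oxide synthase, 0.03 (adjusted p = 0.92 from limma). Once limma fitted an intensity trend with robust variance, *Odc1* and *Azin1* were called as lower, 2 of these 19 where 1.45% of all genes were.

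Around itaconate, none of 17 genes of citrate and succinate metabolism passed limma, SAM or limma with an intensity trend, and 1 had an unadjusted p below 0.05 from limma, as lower. Lower at that unadjusted p were 6.9% of all genes. The log2 differences of the 17 genes ran from -0.19 to 0.18. Among them *Sdha*, a subunit of the succinate dehydrogenase that itaconate inhibits, had a difference of 0.05, *Cs*, citrate synthase, -0.04 and *Aco1*, the cytosolic aconitase, 0.10 (adjusted p = 0.84, 0.87 and 0.69 from limma). Beside these 17, *Acod1* was called.

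Upstream, none of 22 measured cytokine receptors and signalling genes passed limma or SAM, with 2 higher and 0 lower at an unadjusted p below 0.05 from limma. At that unadjusted p 4.64% of all genes were higher and 6.9% lower. The IL-4 receptor chain gene *Il4ra* had a difference of 0.15 (95% interval -0.05 to 0.35) and *Stat6* one of 0.07 (-0.11 to 0.24). The interferon-gamma receptor chains *Ifngr1* and *Ifngr2* had 0.15 and -0.03, *Il10ra* had 0.15 and *Stat3* 0.05, with adjusted p from limma of 0.49 to 0.91. The highest difference was that of *Il6ra*, the IL-6 receptor, at 0.35 (adjusted p = 0.20), which was called once limma fitted an intensity trend, as was *Jak2* at 0.23, 2 of these 22 where 1.9% of all genes were called as higher. None of the 7 other SOCS genes and none of 3 other resistin-like genes passed limma, SAM, limma with an intensity trend or an unadjusted p below 0.05. *Socs1*, the brake on interferon signalling, had a difference of -0.12, and *Retn*, *Retnlb* and *Retnlg* had 0.17, -0.13 and -0.08. On every array *Retnlb* and *Retnlg* lay below the lower quartile of all probe sets and *Retn* below the median, so a difference may not be detectable there.

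*Trem2* itself had log2 values of 7.64 and 7.45 on the *Trem-2*-/- arrays, against 9.58 and 9.74 on the WT arrays, in the direction that the genotype labels call for, although which exons its probe set covers is not given in the sources used here. Of 15 alveolar macrophage markers, 13 lay above the upper quartile on every array in both genotypes, and the median difference was -0.01. *Car4* was the only one of them that limma called (log2 difference 0.90, adjusted p = 0.035), and it passed in 1 of the 4 fits with an array left out. Limma called 0.431% of all genes as higher and 0.135% as lower. At an unadjusted p below 0.05 from limma, 4 of the 15 alveolar macrophage markers were higher and 2 lower, and SAM called 2 as higher. With an intensity trend limma called 4 as higher and 2 as lower, namely *Siglecf* (-0.21) and *Krt79* (-0.35). In that fit 1.9% of all genes were called as higher and 1.45% as lower. The summed linear signal of the 15 alveolar macrophage markers was 41774 to 42988 in *Trem-2*-/- AM and 42139 to 42297 in WT AM. Of 19 interstitial or monocyte-derived macrophage markers 8 rose, 1 fell (*Itgam*, at -0.54) and 10 were not called. Their summed signal was 34371 to 34881 in *Trem-2*-/- AM and 27173 to 27599 in WT AM. This list shares *Cd68* (-0.04), *Csf1r* (0.13) and *Mertk* (0.11) with the general macrophage markers, and the alveolar list holds *Mrc1*. The sums are thus not amounts of a cell type. *Apoe* had a log2 difference of 1.67 and *Pf4* one of 1.98, whereas *Lyve1* had -0.09, *Folr2* -0.07, *Maf* -0.01 and *Cd163* 0.10, the last of these below the lower quartile on every array. With 1 array left out, 3 to 4 of the 19 were called. Of 10 peritoneal or pleural cavity macrophage markers 7 rose and none fell, with sums of 2455 to 2552 in *Trem-2*-/- AM and 453 to 465 in WT AM. Several of these 10, such as *Saa3* and *Prg4*, were already known to differ on these arrays when the list was written, and it shares *Alox15* with the alternative activation list, so its count is a description. The defining factor *Gata6* had log2 values of 5.66 and 5.81 on the *Trem-2*-/- arrays and 5.06 and 5.35 on the WT arrays, below the median of all probe sets on every array. Its log2 difference of 0.53 passed neither limma (adjusted p = 0.17) nor SAM. Limma with an intensity trend called *Gata6* as higher (adjusted p = 0.031). Of 16 lung epithelial markers 2 rose and none fell, with sums of 2084 to 2092 in *Trem-2*-/- AM and 1601 to 1684 in WT AM. SAM called 5 of these 16 as higher, and limma with an intensity trend called 6 as higher and 1 as lower. At an unadjusted p below 0.05 from limma, 8 epithelial markers were higher and 1 lower. General macrophage markers, 10 in number, all lay above the upper quartile on every array and none was called by limma or SAM, with 2 higher and 0 lower at an unadjusted p below 0.05 from limma. Limma called none of 13 neutrophil, 10 dendritic cell, 11 T and NK cell and 6 B cell markers. SAM called 1 of them, the neutrophil marker *Csf3r*, as higher, and at an unadjusted p below 0.05 from limma 4 neutrophil markers were higher, 1 dendritic cell marker higher and 2 lower, and 1 T or NK cell marker higher. Of all genes, SAM called 0.857% as higher, and 4.64% were higher and 6.9% lower at an unadjusted p below 0.05 from limma. In limma *Alox15* was the 1 call among 7 eosinophil markers. The part of any of these cells in the activation gene values was not tested.

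**Figure D4:**
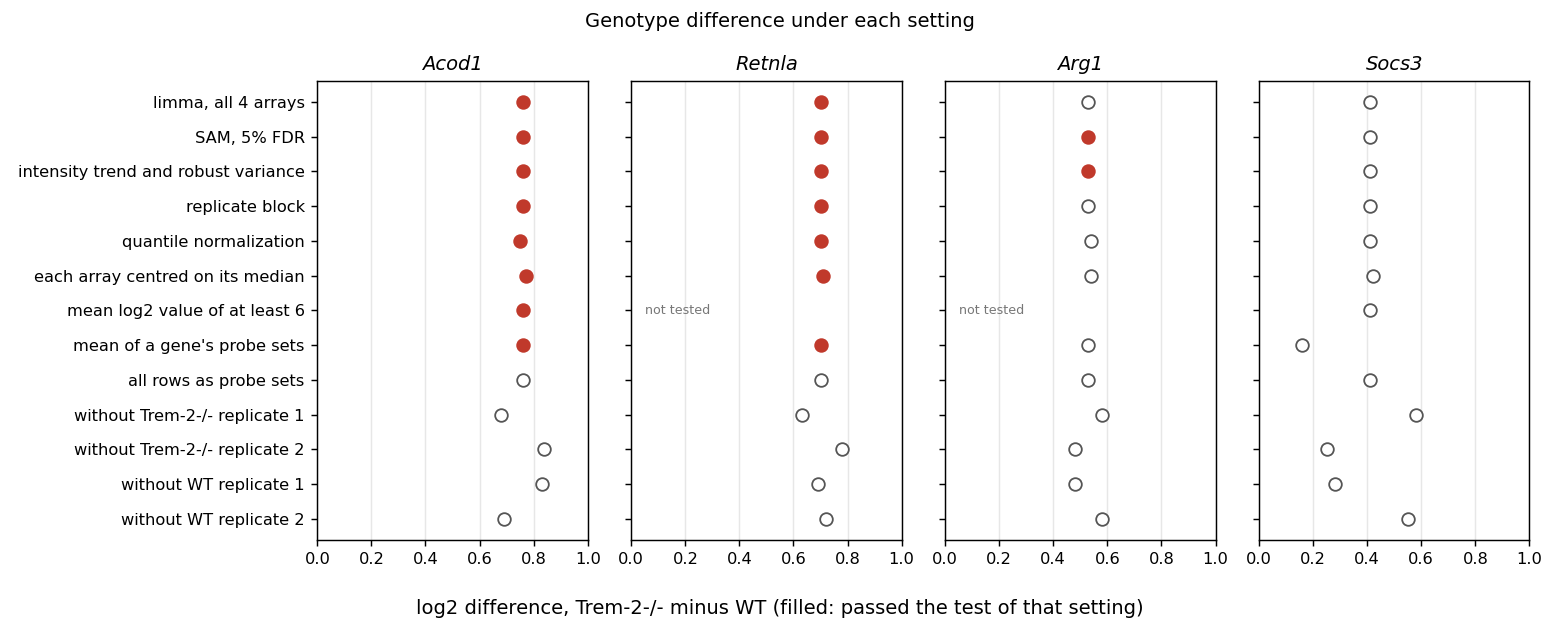
Log2 difference, *Trem-2*-/- minus WT AM, of *Acod1*, *Retnla*, *Arg1* and *Socs3* under each setting. Filled red points passed the test of that setting and open points did not. *Acod1* stays between 0.68 and 0.84 and *Retnla* between 0.63 and 0.78, and both lose their call with any 1 array left out or when all rows are tested as probe sets, while *Socs3* moves from 0.16 to 0.58.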

How the data were processed

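Total RNA of pooled AM was hybridized to Affymetrix mouse Gene 1.0 ST arrays, 2 per genotype. The authors combined the arrays' intensity files and normalized them by RMA (background correction, quantile normalization, summary per probe set), and deposited 1 log2 value for each of 35557 probe sets and 4 arrays. RMA and mm9 are the tool and genome build listed in the submitters' processing notes, and no version is given. These steps could not be varied here, no detection call was at hand, and the number of arrays limits the precision.

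Groups came from the sample titles. Of the probe sets, 21797 carry 1 symbol in the platform annotation, 1613 carry several and 12147 are not listed and stayed unnamed. Where a gene had more than 1 probe set (999 genes), that of highest mean was kept. The genotypes were compared over 19946 genes by limma (version 3.58.1, run in R 4.3.3), using lmFit and eBayes with no replicate term. P-values were two-sided, adjusted by Benjamini-Hochberg and held against 0.05. The methods' test, SAM at a false-discovery rate of 5% over all 6 assignments of the arrays, was coded anew here. Both tests were tested on simulated data with 200 changed genes of 19946. Of log2 changes of 0.5, limma recovered 29.9% and SAM 32.8%, and of changes of 1 each recovered 91%. False calls made up 5.8% of those by limma and 7.5% of those by SAM. An exact two-sided permutation test of 1 gene cannot give a p below 0.333 with 2 arrays against 2.

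The activation genes and the other lists were chosen with earlier results of these data known. Named are the 10 genes, called members of the related lists, *Trem2* and the nearest array profiles of called genes. Members named without a call, and counts of lists without any, were picked after their values were seen. Other alternatives were to leave out each array, to test every row, to average the probe sets of a gene, to keep genes with a mean log2 value of 6 or more, to centre on the median, to normalize by quantiles, to block on the replicate number, and to fit an intensity trend (robust variance).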

Additional observations from a re-analysis of the deposited data

How the results depend on the processing

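*Acod1* and *Retnla* passed with the replicate block, quantile normalization, median centring, averaged probe sets per gene, SAM and an intensity trend with robust variance. With all rows tested as probe sets, limma was refitted to 35557 rows, so both its variance estimates and the adjustment changed. In that fit 0 of the 10 activation genes passed (*Acod1* 0.76, adjusted p = 0.27, *Retnla* 0.70, adjusted p = 0.26 from limma). The count was also 0 to 0 with 1 array left out, where *Acod1* ran from 0.68 to 0.84 and *Retnla* from 0.63 to 0.78 on the log2 scale. In these fits the lone array of a genotype is assumed to vary like the other genotype. At a mean log2 value of at least 6, 4 activation genes were tested and 1 passed, *Acod1*, since *Retnla* and *Arg1* are dimmer. *Arg1*, at 0.53, passed under SAM and an intensity trend only. Signs turned only in genes without a call. *Mrc1* had -0.02 after quantile normalization, and with 1 array left out *Mrc1* ran from -0.07 to 0.10, *Nos2* from -0.16 to 0.28 and *Il10* from -0.23 to 0.12. Over all genes, 113 calls became 190 with SAM, 669 with an intensity trend, 357 at a mean of at least 6, 23 with all rows and 28 to 49 with 1 array left out. With 1 array left out, 1 to 3 of the other classical genes (4 called with all arrays), 1 of the other alternative genes (2), 3 to 4 interstitial or monocyte-derived macrophage markers (9), 6 to 7 cavity macrophage markers (7), 0 to 1 alveolar macrophage markers (1) and 0 to 1 epithelial markers (2) passed. The labels do not say that a shared replicate number marks a shared batch, and deviations of same-numbered arrays correlated at -0.05 over genes. With the replicate block 129 genes and the same 2 activation genes were called (*Acod1* adjusted p = 0.015, *Retnla* 0.027 from limma), as were 6 other classical genes, *Ccl5* and *Il1b* included (adjusted p = 0.0066 and 0.027).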
